A study of Mus musculus with 2 samples.

Results

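The genes described here build or serve the machinery that brings proteins made in the cytosol into mitochondria. They were taken by name: every gene whose mouse symbol starts with Timm or Tomm and is no pseudogene, plus Dnlz, Pam16, Grpel1, Grpel2, Pmpca, Pmpcb, Samm50, Chchd4 and Gfer. This gave 36 of the 43346 Ensembl genes in the gene tables. Of these, 35 encode proteins and 1, Tomm6os, is a long noncoding RNA antisense to Tomm6 that enters by its symbol alone. Timmdc1 also enters by its symbol, although its product is known as an assembly factor of respiratory complex I.

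Total RNA was sequenced from 2 whole hearts of newborn mice (postnatal day 0) of strain B6NCrl, a C57BL/6 substrain, with no engineered allele or treatment named in the labels. Replicate 1 was pup 2 and replicate 2 was pup 3 of pregnancy 1; both carry the same donor ID and their sex was not collected. Each library was made from 10 ng of RNA above 200 bases, and its estimated read total was 46151722 in replicate 1 and 44707283 in replicate 2. With 1 age, 1 tissue and 1 litter there was no group to compare, so levels are given for each pup, as mean ± SD (n = 2), and no p-value is given; the spread is that between littermates and library preparations. The heart label was checked on marker genes. All 6 cardiomyocyte markers, Actc1, Myh6, Tnnt2, Myl2, Actn2 and Ryr2, were above 1 TPM, the authors' length-scaled abundance unit, in both pups and summed to 44086 and 39901 TPM. None of the 4 hepatocyte markers passed 1 TPM in both, whereas lung epithelial markers differed between the hearts in opposite directions. Scgb3a2 had 2.96 TPM in replicate 1 and 563 TPM in replicate 2 and Scgb1a1 0.97 and 74.3 TPM, while Sftpc had 25.5 TPM in replicate 1 and 0.34 TPM in replicate 2 and Sftpb was under 1 TPM in both. These were whole tissues, so fewer cells of a type and less RNA per cell cannot be told apart.

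Nearly all mitochondrial proteins are encoded in the nucleus and enter through the TOM complex of the outer membrane, whose receptors recognise a precursor and whose pore passes it on. Beta-barrel proteins are then inserted by the SAM complex, small cysteine-rich proteins are trapped in the intermembrane space by the MIA disulfide relay, and hydrophobic carriers are escorted by small TIM chaperones to the TIM22 complex. Precursors with a cleavable presequence cross the inner membrane through TIM23, are pulled into the matrix by the PAM motor around mitochondrial Hsp70, and lose the presequence to the processing peptidase MPP. Cardiac muscle is rich in mitochondria, which makes import a constant demand in this tissue.

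The small TIM family can be recognised in its coding sequence, and the stretch is shown because these near relatives differed widely in level. Each member carries a pair of CX3C motifs, in which cysteine codons are separated by 3 other codons; the cysteines form disulfide bonds that hold a helical hairpin. The stretch from the first to the last of the 4 cysteine codons is given 5′ to 3′ from the GENCODE M21 coding transcripts, with those 4 codons in capitals.
Timm8a1: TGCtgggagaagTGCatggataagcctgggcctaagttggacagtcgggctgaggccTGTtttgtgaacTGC
Timm8a2: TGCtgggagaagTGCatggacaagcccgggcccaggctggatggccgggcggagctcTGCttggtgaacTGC
Timm8b: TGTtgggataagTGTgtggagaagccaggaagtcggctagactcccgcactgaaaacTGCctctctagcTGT
Timm13: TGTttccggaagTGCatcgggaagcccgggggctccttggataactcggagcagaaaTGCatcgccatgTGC
Timm9: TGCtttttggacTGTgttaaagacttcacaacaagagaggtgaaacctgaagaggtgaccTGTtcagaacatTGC
Timm10: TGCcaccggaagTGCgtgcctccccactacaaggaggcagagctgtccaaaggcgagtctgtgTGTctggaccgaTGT
Timm10b: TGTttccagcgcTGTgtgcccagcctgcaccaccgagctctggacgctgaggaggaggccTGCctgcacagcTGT
The motifs lie 14 codons apart in Timm8a1, Timm8a2, Timm8b and Timm13, 15 apart in Timm9 and Timm10b, and 16 apart in Timm10. Of the 9 pairs of members whose coding sequences were aligned, Timm8a1 and Timm8a2 were the closest, with 77.3% identical bases over 291 aligned bases, yet no run of 31 bases is shared between them.

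Of the 36 genes, 33 were detected, meaning 1 TPM or more in both pups, against 54.5% of the 21461 nuclear protein-coding genes. All 33 also passed 5 TPM, and their mean levels ran from 6.67 TPM for Grpel2 to 507 TPM for Timm17a, with read estimates per gene and pup from 921 to 14959.6. Together the 36 genes summed to 3866 TPM in replicate 1 and 3859.6 TPM in replicate 2 (3863 ± 4.52 TPM), or 0.387% and 0.386% of all TPM. Their median was 65.9 TPM, where the median of all nuclear coding genes was 1.99 TPM and that of the detected ones 11.97 TPM. In the order of coding genes by mean TPM, 12 stood among the first 1000. The pups lay close together: the SD of a detected gene was 3.87% of its mean in the median and 13.5% at most, for Tomm70a. Genes of short deposited length were the more abundant ones. Their median was 169.6 TPM for the 9 detected genes under 1000 bases, against 57.6 TPM for the other 24. All detected coding genes showed the same order, at 64.8 TPM for the 1109 under 1000 bases and 10.9 TPM for the 10577 longer ones. Length thus moves with the levels given here. The lengths are the authors' gene lengths in replicate 1, which for Timm17a, Timm10b and Timm17b were 770, 577 and 888 bases. The longest coding transcripts of these 3 genes have 7280, 3273 and 2381 bases, and the median of 169.6 TPM is the gene total of Timm10b.

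**Figure D1:**
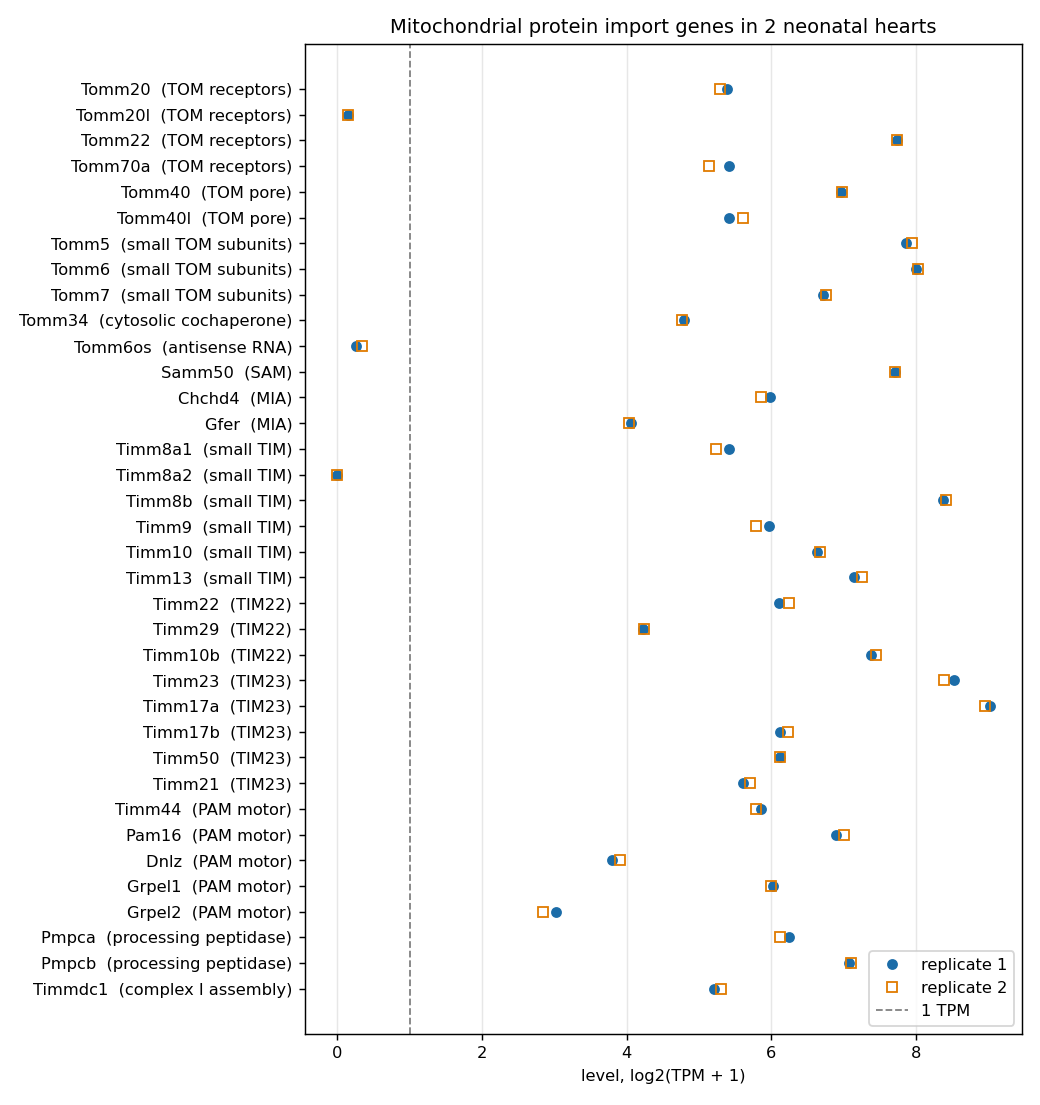
Level of each of the 36 import genes in the 2 pups, as log2(TPM + 1), grouped by role down the page; filled circles are replicate 1 and open squares replicate 2, and the dashed line marks 1 TPM. The 3 genes left of the line are Tomm20l, Tomm6os and Timm8a2, and Timm17a lies farthest right.

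Among the TOM receptors, Tomm22, the central receptor that also organises the complex, was the highest with 213 and 212 TPM in replicates 1 and 2. Tomm20, which recognises presequences, had 41.0 and 38.1 TPM. Tomm70a, the receptor for carrier precursors handed over by cytosolic chaperones, had 41.6 and 34.3 TPM. Tomm20 and Tomm70a could not be ordered: Tomm70a was the higher in replicate 1 and Tomm20 in replicate 2. The Tomm20-like gene Tomm20l was close to absent, with 2 reads in each pup (0.11 TPM), under the 3 reads (0.158 and 0.160 TPM) that a count of 0 would still allow.

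The pore showed a dominant and a minor form. Tomm40, the beta-barrel channel itself, had 124 and 126 TPM, and its paralog Tomm40l had 41.9 and 47.9 TPM. The ratio of their means was 2.78, and Tomm40 was the higher in each pup. Of the small subunits that stabilise the pore, Tomm5 had 232 and 245 TPM and Tomm6 had 254 and 261 TPM, the highest levels of the TOM genes. Tomm7 had 104 and 107 TPM, and is also known for holding the kinase PINK1 at the TOM complex. Tomm34, a cytosolic cochaperone of Hsp70 and Hsp90 and no membrane subunit, had 26.7 and 26.3 TPM. The antisense RNA Tomm6os was at 0.19 and 0.26 TPM (20.5 and 27.4 reads); it overlaps 219 exon bases of Tomm6. The sources used here do not say whether counting used strand, and without it reads of the overlap cannot be told apart.

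Samm50, the core barrel of SAM, was nearly identical in the pups, at 208 TPM in each (SD 0.0283). Both parts of the disulfide relay were detected at unequal levels. Chchd4, the import receptor and oxidoreductase known in yeast as Mia40, had 62.2 and 56.8 TPM, against 15.6 and 15.4 TPM for Gfer, the sulfhydryl oxidase that reoxidises it. The ratio of means was 3.84.

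The small TIM chaperones, whose motifs are printed above, spanned from the third highest level of all import genes to no reads at all. Timm8b had 332 and 341 TPM, while its X-linked relative Timm8a1, whose human ortholog is mutated in deafness-dystonia syndrome, had 41.6 and 36.8 TPM. Timm8b was thus 8.58 times Timm8a1 in the means, and 60.2% of their aligned coding bases are identical. Their read estimates were closer, at 5417 and 5512 for Timm8b and 2098 and 1838 for Timm8a1. The gene lengths were 527 bases for Timm8b and 1421 for Timm8a1. Timm8a2 (chr14:122034674-122038420, plus strand, mm10) had 0 reads in both pups, which allows up to 0.0966 and 0.0976 TPM by counting error alone. Against that limit the estimate of Timm8a1 was 431-fold higher in replicate 1 and 377-fold higher in replicate 2. These folds leave out the error of Timm8a1 itself.

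Timm13, the known partner of the Timm8 proteins in a hexameric chaperone, had 140.2 and 152 TPM, so Timm8a1 was the scarcer of those partners in each pup while Timm8b was above Timm13. In the other hexamer, Timm9 had 61.4 and 54.3 TPM, against 97.8 and 101 TPM for Timm10. Timm10 was 1.72 times Timm9 in the means, while the hexamer known from structures holds both proteins in equal number. Protein was not measured here.

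In the carrier translocase, Timm22, the channel subunit, had 67.9 and 74.6 TPM, and Timm29, a subunit described in human TIM22, had 17.6 and 17.9 TPM. Timm10b, the small TIM protein that docks the chaperones on TIM22, had 165 and 174 TPM by its gene total. In the presequence translocase, Timm17a had the highest gene total of all members, with 519 and 495 TPM, and the channel subunit Timm23 followed with 369.5 and 333 TPM. Timm17b, the X-linked paralog of Timm17a, had 68.4 and 74.5 TPM; the coding sequences of the paralogs are 68.4% identical. Timm50, the receptor that meets presequences leaving TOM, was steady at 68.7 and 68.5 TPM, and Timm21, which links TIM23 to TOM and to the respiratory chain, had 47.9 and 51.0 TPM. As a set the 5 TIM23 genes summed to 1048 ± 36.8 TPM, against 259 ± 10.9 TPM for the 3 TIM22 genes. Both sums depend on which transcripts are counted: on coding transcripts only they were 672 ± 23.5 and 178 ± 6.60 TPM, and with reads divided by the longest coding transcript 535 ± 23.6 and 66.3 ± 0.344 TPM.

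The transcript tables show that the gene totals of Timm17a, Timm10b, Timm17b and Timm22 rest in large part on short annotated pieces. At Timm17a (chr1:135295213-135313778, minus strand) the transcript Timm17a-204, 565 bases long and classed as a retained intron, held 67.6% ± 0.148 of the gene's TPM. The coding Timm17a-203 of 468 bases held 29.0%, and the full coding Timm17a-201 of 7280 bases held 3.42% although it took 37.1% of the reads in replicate 1 and 36.5% in replicate 2. Of the 565 bases of Timm17a-204, 561 lie in exons of Timm17a-201 and 456 in its coding part, so a read within those bases matches both. Counting coding transcripts only, Timm17a had 168 and 161 TPM, against 363 and 329 TPM for Timm23. If all Timm17a reads were divided by the 7280 bases, its level would be 48.5 and 45.8 TPM, 10.8 times lower than the gene total. The first place of Timm17a therefore held for the gene total only, and under both of these alternatives, chosen after the data were seen, Timm23 was the higher.

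Timm10b (chr7:105640056-105643637, plus strand) was similar. Its retained-intron transcript Timm10b-205, of 444 bases, held 42.6% ± 0.700 of the TPM, with 297 of those bases in exons of the coding Timm10b-201. A further 19.9% sat in a coding transcript of 367 bases that GENCODE M21 gives to the neighbouring gene Gm45799. On coding transcripts alone Timm10b had 87.8 and 90.2 TPM with that transcript and 57.4 and 53.1 TPM without it, both below the 97.8 and 101 TPM of Timm10, whereas its gene total was 1.71 times that of Timm10. Timm17b also had a retained-intron transcript, at 35.4% of its TPM, and at Tomm40l the coding share was 60.2% in replicate 1 and 63.5% in replicate 2. The 362-base Timm22-203 was the main transcript of Timm22, with 41.4% of its TPM. Across the members, Timm10b, Timm17a, Timm17b, Timm22 and Tomm40l were the 5 of 34 coding genes with reads whose gene total was 1.5 times or more the level computed on the longest coding transcript.

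In most members coding transcripts dominated. Of the 20 with more than 1 annotated transcript and 5 TPM or more, the 5 just named included, all 20 had the same main transcript in both pups, 18 of these main transcripts were coding, and in 13 genes coding transcripts held at least 90% of the TPM in each pup. The remaining 13 detected genes had only 1 annotated transcript.

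**Figure D2:**
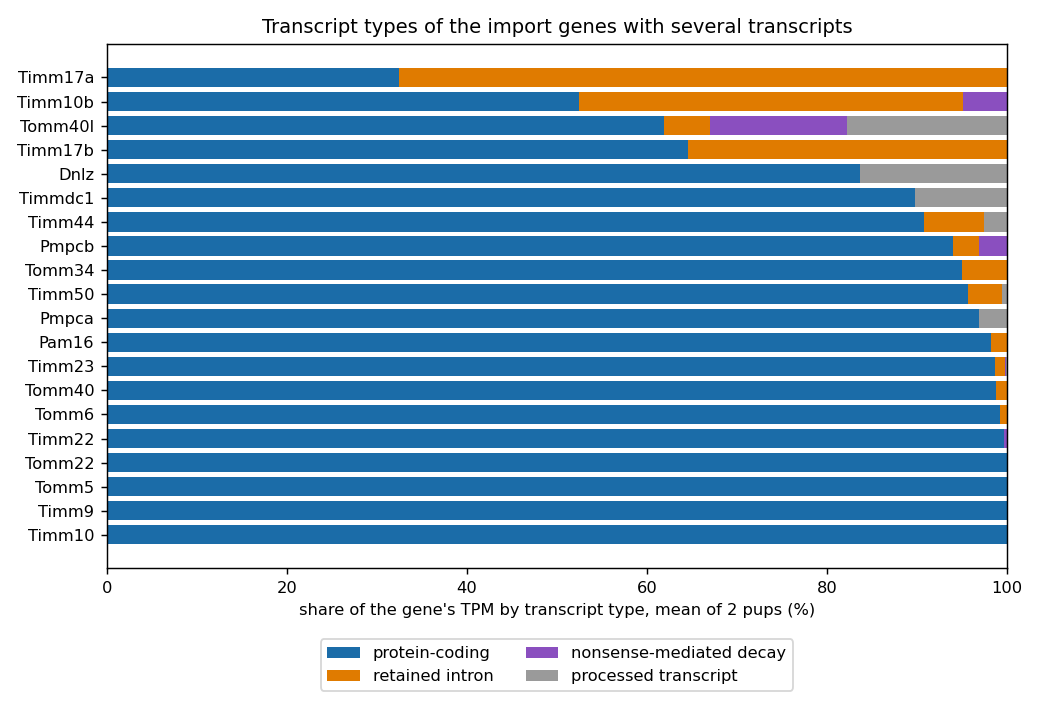
Share of each gene's TPM by transcript class, in percent as the mean of the 2 pups, for the 20 import genes with several transcripts. Timm17a is the only bar with most of its TPM outside coding transcripts (67.6% retained intron); Timm10b, Tomm40l and Timm17b follow.

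The motor genes were unequal. Pam16, a J-like protein that regulates the motor at the channel, had 118 and 128 TPM, and Timm44, the scaffold that tethers Hsp70 to TIM23, had 57.0 and 54.4 TPM. Dnlz, an escort protein that keeps mitochondrial Hsp70 soluble, was low at 12.9 and 14.1 TPM. Of the nucleotide exchange factors of that Hsp70, Grpel1 had 63.9 and 62.6 TPM and Grpel2 had 7.12 and 6.21 TPM, a ratio of 9.49 in the means. Grpel2 was thus the lowest of the detected import genes, and Grpel1 lay above it by a similar factor in each pup (8.98 and 10.1).

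In the processing peptidase, Pmpcb, the catalytic beta subunit, had 134 and 137 TPM, and Pmpca, the alpha subunit that binds the presequence, had 75.2 and 68.8 TPM. Pmpcb was 1.88 times Pmpca in TPM, while the read estimates were close, at 7556 and 7317 for Pmpcb and 8238 and 7589 for Pmpca. The order here comes from division by gene length, which the authors put at 1576 bases for Pmpcb and 2969 for Pmpca in replicate 1. It was kept in 2 length alternatives chosen after the data were seen. The mean log2 ratio of TPM + 1 was 0.86 on coding transcripts only and 0.90 with reads divided by the longest coding transcript. Timmdc1, the complex I assembly factor, had 36.1 and 38.6 TPM.

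Ratios within a pup need no scaling between libraries, so 14 pairs of related subunits were compared that way. A pair was ordered where both pups had the same sign, the mean log2 ratio of TPM + 1 exceeded the gap between the pups, and the credibility intervals of the authors' tables, whose width the files do not state, did not overlap in either pup. In 10 pairs the first-named gene was higher, in 3 the second, and Tomm20 over Tomm70a could not be ordered. After Tomm20 over Tomm20l, the largest log2 ratios with reads on both sides were 3.07 ± 0.15 for Timm8b over Timm8a1, 3.07 ± 0.10 for Grpel1 over Grpel2 and 2.81 ± 0.13 for Timm17a over Timm17b. For Tomm20 over Tomm20l the log2 ratio depended on the pseudocount, at 5.19 with 1 TPM added and 7.56 with 0.1 TPM added, and the 2 reads of Tomm20l set the error. The TPM ratio was 372 with an exact Poisson 95% interval of 103 to 3075 in replicate 1, and 347 with 95.9 to 2862 in replicate 2. Counted on coding transcripts, Timm17a remained above Timm17b at 3.56-fold (1.95-fold with reads divided by the longest coding transcript), and Tomm40 above Tomm40l at 4.44-fold. Those counts of coding TPM turned 2 pairs round, Timm10 over Timm10b (log2 0.16 ± 0.0028 instead of -0.77) and Timm23 over Timm17a (1.07 ± 0.06 instead of -0.53).

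**Figure D3:**
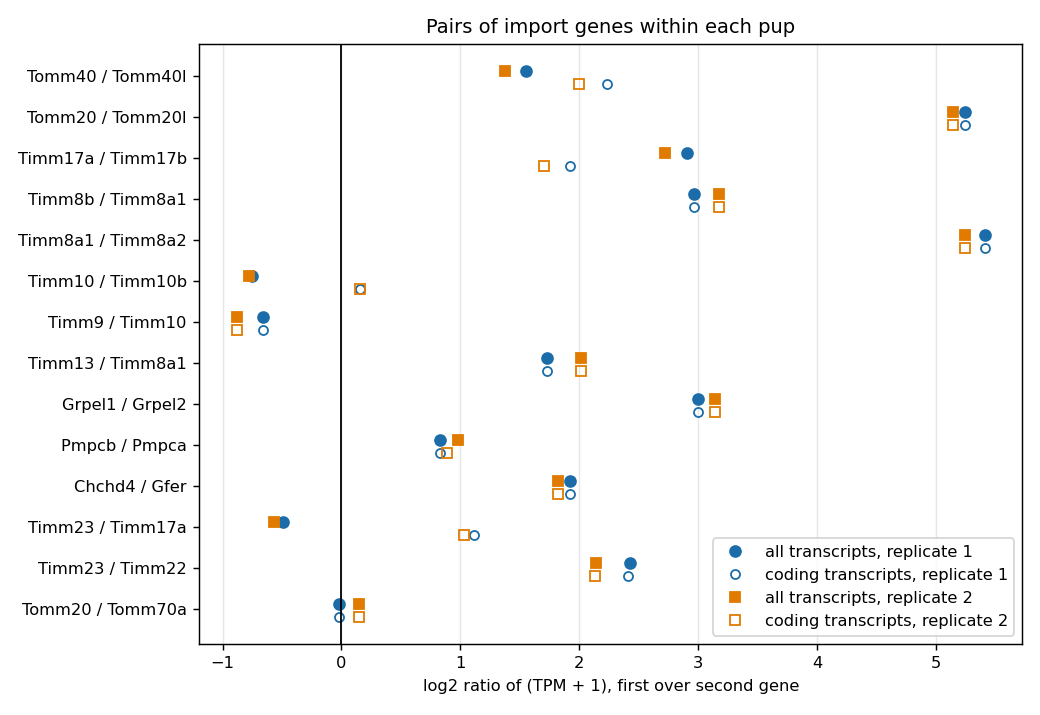
Log2 ratio of TPM + 1 of the first over the second gene in 14 pairs, for replicate 1 (circles) and replicate 2 (squares); filled symbols use all transcripts and open symbols coding transcripts only. Timm10 / Timm10b and Timm23 / Timm17a lie on opposite sides of 0 in the filled and open symbols, and the pups lie near each other in every pair.

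Several members have processed copies that take reads. All 31-base words (100%) of a transcript of Gm9797, on chromosome 10, also occur in Timm8a1. Gm9797 was given 1244 and 1211 reads, equal to 59.3% and 65.9% of those of Timm8a1. The copy Gm14494 of Tomm20 on chromosome 2 shares 84.7% of its words and had 1284 and 1245 reads; its short transcript gave it 100.2 and 98.1 TPM, above Tomm20 itself. Timm23 has a full-match copy, Gm10171 on chromosome 1, with 663 and 565 reads, or 4.43% and 4.21% of those of Timm23. Another full-match copy, Gm10233 on chromosome 14, was given 66.5 reads in replicate 1 and 0 in replicate 2. Gm16209 on chromosome 8 shares 62.8% of its words with Timm23 and had 28.7 and 20.9 reads. How such reads were split is uncertain, and the posterior SD of the read estimate was largest, among the detected members, for Timm8a1 (4.27% of its count at most). The levels of Timm8a1 and Tomm20, and the ratios built on them, carry this limit. Pam16 had the next largest posterior SD, at 3.37% of its count in replicate 1 and 3.58% in replicate 2, so its level is uncertain in the same way.

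Among 16 genes that share exon bases with a detected member on the opposite strand, 1 had more reads than the member in both pups: Gpsm1, with 6187 and 6146 reads, shares 117 exon bases (4.01%) with Dnlz, which had 1376 and 1484. The undetected Tomm20l shares 49 exon bases with Timm9. Nr1i3, on the strand opposite to Tomm40l, covers 64.3% of its exon bases but had 22.3 reads in each pup. Inpp5e, opposite to Pmpca over 20.4% of its exon bases, had 1116 and 1128 reads, and Glis2, opposite to Pam16 over 18.7%, had 762 and 735. Arfip2, opposite to Timm10b over 7.73% of its exon bases, had 1741 and 1652 reads, against 3019 and 2986 for Timm10b. Timm8b shares 15.6% of its exon bases with Nkapd1, which had 606 and 568 reads, against 5417 and 5512 for Timm8b.

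Between the littermates the import genes differed little. After TMM scaling of the rounded read estimates, the log2 ratio of replicate 2 to replicate 1 was 0.01 in the median of the 34 members with a mean of 20 reads or more, and -8.6e-05 over all 15171 such genes. The median absolute ratio was 0.07 for the members and 0.12 for all genes. These are not matched for depth: 33 members have 500 reads or more, as do 8867 of the 15171 genes. No median at matched depth was taken. The ends were Tomm70a at -0.26 and Tomm6os, with its few reads, at 0.43. At a mean of 50 reads or more, 0 of 33 members passed 2-fold, where 0.498% of 13465 genes did. At 1.5-fold it was 0 members and 2.07% of genes, and at 1.2-fold 0 members and 15.2%. The 0 at 1.2-fold depends on the scaling. Tomm70a was 1.199-fold lower in replicate 2 under TMM, and past 1.2-fold with DESeq2 size factors (log2 ratio -0.277). The share depended on depth: at 500 reads or more, a floor all 33 members pass, the share past 1.2-fold was 7.05% of 8867 genes.

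The credibility intervals of TPM did not overlap between the pups for 9 of 33 members, against 17.6% of all genes tested and 23.3% of those at 500 reads or more. Timm13 was the higher in replicate 2, where 7.07% of genes were and 8.82% of those at 500 reads or more. Lower in replicate 2 were 8 members, Tomm20, Tomm70a, Chchd4, Timm9, Timm23, Timm17a, Grpel2 and Pmpca, where 10.6% of all genes were and 14.5% of those at 500 reads or more. These intervals cover the counting and read-sharing error of 1 library, not the variation between animals. Transcript length moved with the ratio, with a Spearman rho of -0.34 over the 33 members and -0.34 over 8656 coding genes at 500 reads or more, given as a description over genes of the same libraries. Markers of other cells differed in both directions. In replicate 2 the 4 fibroblast markers summed to 545 TPM and the 4 macrophage markers to 62.4 TPM, against 508 and 54.9 TPM in replicate 1. The fibroblast markers were split. Col1a1 (261 against 254 TPM) and Dcn (237 against 206 TPM) were higher in replicate 2, Tcf21 (43.3 against 44.0 TPM) and Pdgfra (3.77 against 4.26 TPM) lower. The 4 smooth muscle and pericyte markers summed lower in replicate 2 (903 against 1151 TPM in replicate 1), of which Acta2 alone gave 884 and 1130 TPM. Also lower in replicate 2 were the sums of the 4 erythroid markers (3915 against 6033 TPM) and the 4 endothelial markers (128 against 140.1 TPM). The part of such cells in the differences between the pups was not tested.

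**Figure D4:**
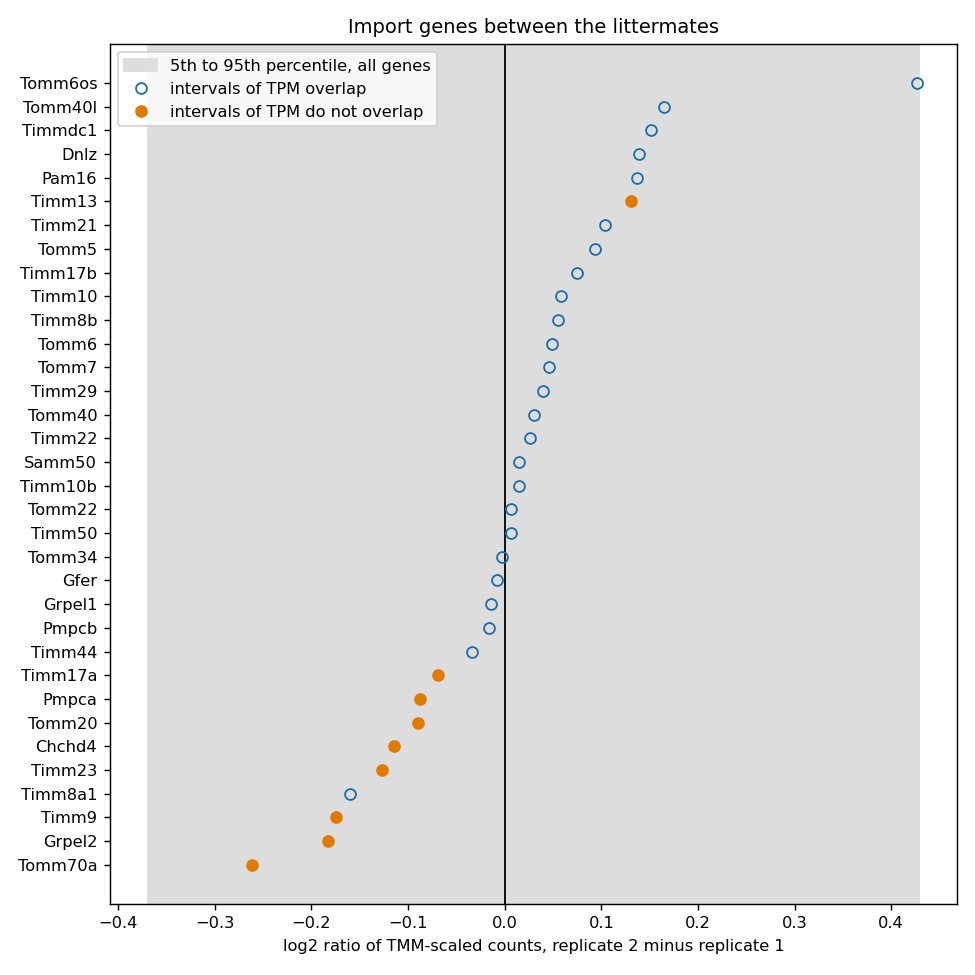
Log2 ratio of TMM-scaled read estimates, replicate 2 over replicate 1, for 34 import genes in order; the grey band runs from the 5th to the 95th percentile of all 15171 genes (-0.37 to 0.43), and filled points mark genes whose TPM credibility intervals do not overlap. All points lie inside the band, with Tomm6os at its upper edge.

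Set beside other lists of nuclear-encoded mitochondrial genes, the import genes were of middle abundance by their median of 65.9 TPM and lowest by their sum. The median was 848 TPM for 38 genes taken for respiratory complex I by their Nduf symbols. It was 102.3 TPM for 77 mitochondrial ribosomal proteins and 8.48 TPM for 47 carriers of the Slc25 family. The import genes summed to 3866 and 3859.6 TPM in replicates 1 and 2. The sums were 35162 and 36593 TPM for the Nduf genes, 9320 and 9549 TPM for the ribosomal proteins and 9126 and 9054 TPM for the carriers. Slc25a4 alone held 4980 and 4956 TPM of the carrier sums. Detection was 33 of 36 for import genes, 38 of 38 for the Nduf genes, 77 of 77 for the ribosomal proteins and 40 of 47 for the carriers. Timm17a, by its gene total of 507 TPM, lay below the lower quartile of the Nduf genes, 654 TPM.

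**Figure D5:**
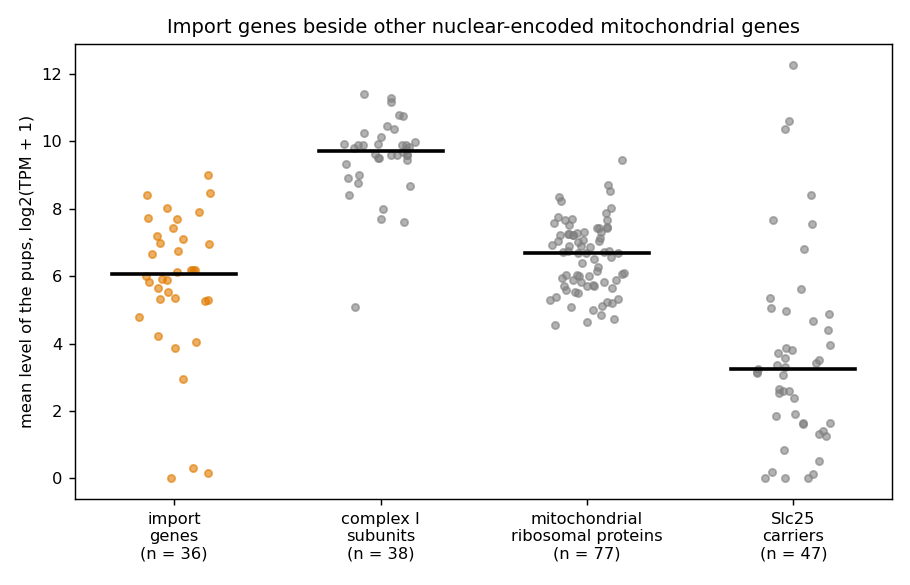
Mean level of the 2 pups, log2(TPM + 1), for each import gene and each gene of 3 other nuclear-encoded mitochondrial lists; points are genes, spread sideways at random, and bars are medians. The import genes sit below most Nduf genes, named complex I subunits on the axis (medians 65.9 and 848 TPM). They sit above most Slc25 carriers (median 8.48 TPM).

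Of 25 other genes of the import and membrane-organising pathway, 24 were detected, with sums of 3595 and 3619 TPM and a median of 132.8 TPM. The highest were Romo1, a small inner membrane protein, at 462.5 and 463 TPM, and Immt, the core of the MICOS complex that shapes cristae, at 377 and 370.3 TPM. Hspd1, the matrix chaperonin that folds imported proteins, had 301 and 297 TPM. Hspa9, the mitochondrial Hsp70 itself, had 290.3 and 263 TPM, above each of the 5 motor genes among the members. At the low end were Xpnpep3, which trims cleaved N termini, at 5.45 and 5.24 TPM, and Mtx3, a metaxin, at 1.13 and 0.89 TPM, the 1 gene of the list below 1 TPM in a pup.

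The starts of the import genes were searched for 2 motifs known from promoters of nuclear genes for mitochondrial proteins. In RefSeq windows of 250 bases before to 50 after a start (GRCm38.p6), 34 windows of 32 members were found. CCGGAAG, the core bound by ETS-family factors such as GABP, was present on either strand in 15 of 34 windows (44.1%), against 11.6% of 21263 windows of coding genes and 17.8% of 11825 windows of coding genes detected in both hearts. The windows of Tomm34 overlap and share a match. Counted by gene, the motif was in 14 of 32 members (43.75%), against 12.9% of 17492 coding genes and 20.9% of 9203 detected ones. The consensus palindrome of nuclear respiratory factor 1, searched as an exact match, was in 0 of 34 windows. It was in 1.33% of coding windows and in 2.08% of windows of coding genes detected in both hearts. At such shares 34 windows are too few to tell the members from other genes. The 100 bases before the start are shown for the 4 most abundant members with a match there, in capitals where CCGGAAG or its reverse complement CTTCCGG was found.
Timm23 (chr14:32201892-32201991, minus strand): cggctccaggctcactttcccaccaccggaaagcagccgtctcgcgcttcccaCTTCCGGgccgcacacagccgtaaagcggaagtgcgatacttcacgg
Timm8b (chr9:50603801-50603900, plus strand): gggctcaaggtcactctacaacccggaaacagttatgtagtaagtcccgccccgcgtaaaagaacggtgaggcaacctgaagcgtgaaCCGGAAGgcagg
Tomm22 (chr15:79670768-79670867, plus strand): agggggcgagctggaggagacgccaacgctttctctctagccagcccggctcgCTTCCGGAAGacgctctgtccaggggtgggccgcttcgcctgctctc
Pmpcb (chr5:21737060-21737159, plus strand): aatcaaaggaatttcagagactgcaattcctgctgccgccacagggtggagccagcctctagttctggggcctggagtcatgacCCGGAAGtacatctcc
In Tomm22 the matches on the 2 strands overlap and form CTTCCGGAAG, which counts once as a window. Timm8a2, with 0 reads, holds the motif as well. These are matches of letters, and no binding was measured.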

How the data were processed

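The authors deposited a gene and a transcript table for each library, quantified on mm10 with GENCODE M4 per the deposited read-me; their headers follow RSEM's output format, and the sources used here do not give the versions of the aligner and quantifier. Expected counts are, per the file headers, estimated reads per feature, with reads that match several features shared out. TPM and FPKM values were deposited as length-scaled levels, TPM over all features, mitochondrial genes and spike-ins included. The transcript tables hold, per the file headers, the percent of a gene's TPM in each transcript. The bounds of the credibility intervals are deposited as a signal in TPM units, and the posterior SD of the count is used as the authors' score of read-sharing error.

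From these, symbols, transcript classes and positions were taken from GENCODE M21 (same build), which matched 42462 of 43346 Ensembl genes. Features that are no Ensembl gene held 0.000646% and 0.000637% of the counts and stayed out. Levels are TPM, with 1 TPM in both pups as detection; the detection limit of a gene with 0 reads is 3 counts, which covers counting error only. Expected counts were rounded and scaled by TMM in edgeR 4.0.16 (R 4.3.3; prior count 2) for ratios between the pups, with DESeq2 1.42.0 size factors as an alternative; the ratio code was tested on simulated data. Python 3.11.15, pandas 2.3.3, numpy 2.4.6, scipy 1.17.1 and matplotlib 3.10.9 did the rest. An exact test over 2 pups cannot pass any usual threshold, so none was run. Copies were found by 31-base words, at 50% or more of a pseudogene transcript's words.

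All members are named, with the 4 most and 2 least abundant of the other import genes. Sequences are those of the small TIM motifs and of the 100 bases before a start. Members, lists and pairs were chosen with earlier results of these data known. Protein sequences were not used here.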

Additional observations from a re-analysis of the deposited data

How the results depend on the processing

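Detection of 33 members, the 20 shared main transcripts and the 0 members past 2-fold held under each alternative run. The summed level was 3814 TPM by posterior means, 5176 TPM when rescaled to nuclear coding genes, and 3859.6 to 3866 TPM with either pup alone. The median was 71.3 TPM over members of 1 TPM or more, 65.3 TPM by posterior means, 88.4 TPM rescaled and 65.6 to 65.9 TPM with either pup alone. With coding transcripts only, chosen after the data were seen, the sum was 3360.5 and the median 61.4 TPM, 12 pairs (with no interval criterion) instead of 10 had the first gene higher, and log2 ratios turned to 0.16 for Timm10 over Timm10b and 1.07 for Timm23 over Timm17a. With reads divided by the longest coding transcript, also chosen afterwards, these were 3053 and 48.6 TPM, 12 pairs, 1.95 and 2.86. The sums of the TIM23 and TIM22 genes under these settings, and Timm10b without the Gm45799 transcript, were added after the data were seen too. Without division by length, Timm23 over Timm17a turned to 0.14 and Pmpcb over Pmpca to -0.0887. The count of pairs was 10 or 11 with either pup alone, and that of other import genes 24 or 25. The median ratio between the pups turned to -0.000396 under DESeq2 scaling, where the median of all genes moved to -0.01 as well. No paired analysis was possible because there is 1 group, and leaving out a pup gives no ratio between pups. The authors' annotation of short transcripts limits the order of Timm17a, Timm10b, Timm17b, Timm22 and Tomm40l, and 2 littermates limit every SD.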
